A study of Homo sapiens with 24 samples.

Results

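The difference between MB468 and MB468res-R8 (R8) cells in their response to 2 h without Met was measured gene by gene from 12 of the 24 RNA-seq libraries of the study. For every gene, the change of R8 from 0 h to 2 h minus the change of MB468 over the same time was taken on the log2 scale, and this value is called the 2 h line difference. It was computed from the raw counts of all genes other than spike-ins, with 3 libraries in each of the 4 groups. A negative value means that the response was lower in R8 than in MB468, either because a gene rose less or because it fell more, and a positive value the reverse. MB468 (MDA-MB-468) is a metastatic breast epithelial cancer cell line that depends on Met, and R8 is 1 revertant line derived from it that can grow on Hcy, the precursor of Met, in place of Met. Both lines were grown in DMEM with dialyzed FBS, vitamin B12, glutamine, cysteine and 100 µM Met (Met+ media), in which the 0 h libraries were collected, and the 2 h libraries came from cells switched to media with 370 µM Hcy and no Met (Met-Hcy+ media). No library of the series came from cells switched to fresh Met+ media, so the response of each line includes that to the medium change itself. R8 stands for Met independence through a single line, and properties of that line cannot be told apart from Met independence. The labels do not say whether replicates were separate cultures, so p-values measure the spread between these libraries, which may be technical.

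Transcription after a new stimulus often comes in waves. Immediate early genes such as EGR1, FOS and JUN are transcribed within minutes from promoters that bind serum response factor and related factors, and their mRNAs are short-lived. The signal is then ended by feedback: DUSP proteins dephosphorylate MAP kinases, Sprouty and ERRFI1 proteins dampen receptor signaling, and ZFP36 proteins bind AU-rich elements and speed mRNA decay. Amino acid shortage and endoplasmic reticulum stress act through phosphorylation of the translation factor eIF2α, which raises translation of ATF4, and ATF4 with its partner CHOP (DDIT3) induces genes such as CHAC1, SESN2 and ASNS.

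Promoters are shown here for the 4 genes of smallest p that belonged to the ATF4 and CHOP, immediate early, or aryl hydrocarbon receptor lists, had a lower or higher response in R8, and held the binding motif of their list in the 250 bases before the transcription start. Sequences are from RefSeq on GRCh38.p14, read 5′ to 3′ on the strand of the gene, with the motif in capitals. In CHAC1 and CEBPG the capitals mark the CARE motif bound by ATF4 and C/EBP proteins, searched as TGATGNAA on both strands, and in EGR1 and EGR2 they mark CArG boxes, the core of the serum response element.
CHAC1 (chr15:40953221-40953470, + strand): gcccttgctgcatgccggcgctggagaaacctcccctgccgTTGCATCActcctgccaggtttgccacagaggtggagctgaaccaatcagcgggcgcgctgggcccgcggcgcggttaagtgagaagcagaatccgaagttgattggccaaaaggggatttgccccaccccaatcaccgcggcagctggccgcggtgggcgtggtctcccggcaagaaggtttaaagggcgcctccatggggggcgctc
EGR1 (chr5:138465229-138465478, + strand): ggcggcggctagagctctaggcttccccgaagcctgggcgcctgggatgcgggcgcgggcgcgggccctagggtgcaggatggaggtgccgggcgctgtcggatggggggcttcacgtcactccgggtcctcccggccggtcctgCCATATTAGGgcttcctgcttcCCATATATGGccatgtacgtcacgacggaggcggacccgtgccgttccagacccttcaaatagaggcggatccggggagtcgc
CEBPG (chr19:33373863-33374112, + strand): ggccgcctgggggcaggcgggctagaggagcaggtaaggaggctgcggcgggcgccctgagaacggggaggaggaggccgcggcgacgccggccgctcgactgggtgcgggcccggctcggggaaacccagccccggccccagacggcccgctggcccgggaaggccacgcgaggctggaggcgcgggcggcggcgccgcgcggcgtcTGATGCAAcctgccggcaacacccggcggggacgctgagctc
EGR2 (chr10:62816367-62816616, - strand): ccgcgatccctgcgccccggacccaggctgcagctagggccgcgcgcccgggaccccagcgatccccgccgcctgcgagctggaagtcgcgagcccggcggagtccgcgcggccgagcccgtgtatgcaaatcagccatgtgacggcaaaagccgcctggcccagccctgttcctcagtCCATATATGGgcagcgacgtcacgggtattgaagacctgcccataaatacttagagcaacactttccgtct
The CARE motif of CHAC1 began 209 bases before the start, and that of CEBPG 42 bases before it. EGR1 held 2 CArG boxes, the nearer 83 bases before the start, and EGR2 held 1 at 71 bases. CEBPG had 2 annotated start windows and EGR2 had 3, and for each gene a window that held the motif is printed. Of the tested ATF4 and CHOP targets, 32 had a promoter in the table and 7 of these held the CARE motif, as did 3.89% of all 27305 genes with a promoter. For the CArG box, 3 of 21 immediate early genes held a match (EGR1, EGR2 and SRF) against 1.44% of all genes. For the aryl hydrocarbon receptor motif, TNGCGTG on both strands, 1 of 8 listed genes (AHRR) held a match against 5.54% of all genes. A match is a run of letters in this window and not a measured binding site.

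Gene counts summed to between 12016452 and 36402932 per library, spike-ins left out, over the 12 libraries. The MB468 library labelled 2 h replicate 2, which was also the shallowest, stood apart: RNAs without a poly(A) tail, such as RN7SK, RMRP and replication-dependent histone mRNAs, summed to 1907 CPM (counts scaled to the size of the library) in it and to between 27.3 and 69.5 in the other 11 libraries. RN7SK alone had 8251 counts in that library and between 44 and 357 in the others. Of 13 tested RNAs of this kind none was called for the line difference by edgeR's quasi-likelihood test (7 at an unadjusted p under 0.05) or by DESeq2's Wald test, their median line difference was -3.74, and without this library it was -0.22. These 13 are not described further. The histone genes HIST1H2AC and HIST1H2BD, which are outside this set and are named after their values were seen, were called lower in R8 with adjusted p = 0.0322 and 0.0302, and not without this library (adjusted p = 0.116 and 0.220). Results are given with and without this library where it touched them. Spike-in RNAs took 0.213 ± 0.00999% (SD, n = 3) of the counts in MB468 at 0 h and 0.278 ± 0.0224% at 2 h (exact two-sided permutation p = 0.1, the smallest possible for 3 against 3), and 0.261 ± 0.00981% and 0.266 ± 0.0218% in R8 (exact p = 0.9). Scaling by spike-ins therefore shifted all values, and it lowered the median MB468 response of all genes from 0.01 to -0.42 (log2) and moved the median line difference from 0.00 to 0.38. The paper describes the spike-ins with library preparation from extracted RNA, as a control for variation in that step. The RNA put into each library, the number of cells and the RNA per cell cannot be told apart here, and none was tested. Of the markers listed for basal breast epithelium all 13 were tested and summed to between 10709 and 13638 CPM. The ranges were 10709 to 11193 in MB468 and 10936 to 11524 in R8 at 0 h, and 13227 to 13638 and 12538 to 13630 at 2 h. This list also holds EPCAM, CDH1, KRT8, KRT18 and KRT19, which are not particular to basal cells. The sum is therefore one of epithelial genes and not a measure of basal identity. Markers of luminal receptors summed to 142 to 194 CPM and those of fibroblasts to 37.1 to 74.6 CPM, while those of blood and endothelium stayed at or below 12.3 CPM.

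The responses of both lines at 2 h differed for 747 of 14741 tested genes (5.07%; edgeR's quasi-likelihood test, Benjamini-Hochberg adjusted p under 0.05). The response was lower in R8 for 424 genes (2.88%) and higher in R8 for 323 (2.19%). An unadjusted p under 0.05 was reached by 2338 of the 14741, the background for such counts in the lists. A difference of at least 2-fold was reached by 92 called genes, 74 lower and 18 higher in R8. Without MB468 2 h replicate 2, 650 genes were called, 344 lower and 306 higher, and 606 of them were among the 747. With spike-in totals as library sizes, 931 genes were called, of which 65 were lower and 866 higher, so 93.0% of calls were higher in R8 against 43.2% with TMM scaling. The split into lower and higher responses thus rested on the scaling, and the values below are relative to the typical gene unless spike-in scaling is named.

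**Figure D1:**
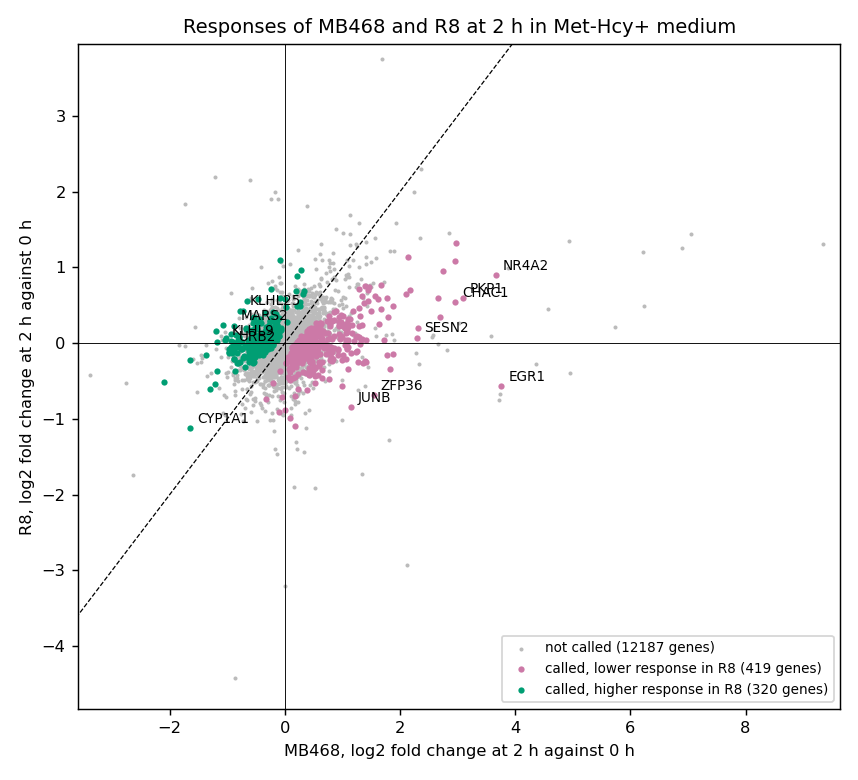
Each point is 1 of 12926 genes with a mean of at least 1 CPM, with the log2 change from 0 to 2 h in MB468 on the x axis and in R8 on the y axis. Genes called for the line difference are coloured by direction (419 lower and 320 higher in R8). Called genes spread more along the MB468 axis than along the R8 axis, and EGR1 is the called gene farthest to the right.

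More genes changed in MB468 than in R8 at 2 h. Against 0 h, 2410 genes changed in MB468 at 2 h (16.3%) and 644 in R8 (4.37%), comparisons that share their 0 h libraries with the line difference. Over the 424 genes with a lower response in R8, the median log2 change at 2 h was 0.45 in MB468 and -0.04 in R8. For the 323 with a higher response in R8 these medians were -0.42 and 0.02. The median difference in level between the lines in the lower group was 0.08 at 0 h and -0.50 at 2 h, and in the higher group -0.09 at 0 h and 0.40 at 2 h. These medians describe genes that were chosen by the same contrast.

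Apart from the RNAs without a poly(A) tail, immediate early genes were the list with the lowest median. Of 29 tested members (30 were listed), 22 had a lower response in R8 and 1 a higher one, and the median line difference was -1.17. The median over all tested genes was 0.00. Without MB468 2 h replicate 2, 21 of 30 tested members were lower and 1 higher, and with spike-in scaling 16 of 29 were lower and 1 higher. In MB468 25 members rose at 2 h and none fell (edgeR's quasi-likelihood test), while in R8 8 rose and 5 fell.

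EGR1 (chr5:138465479-138469303), a zinc finger transcription factor induced by growth factors and stress whose promoter is printed above, had the largest difference of all named genes. Its normalized counts were 994, 966 and 866 in MB468 at 0 h, 12516, 13172 and 12716 in MB468 at 2 h, 869, 1048 and 1019 in R8 at 0 h, and 607, 707 and 644 in R8 at 2 h. The lines overlapped at 0 h, and at 2 h every R8 library lay below every MB468 library and below its own 0 h libraries. EGR1 rose by 3.76 (log2, adjusted p = 8.39e-15) in MB468 and fell by 0.57 (adjusted p = 0.00644) in R8, a line difference of -4.32 ± 0.15 (SE, adjusted p = 1.13e-12). The related EGR2 and EGR3 differed by -2.36 ± 0.32 (SE, adjusted p = 1.57e-06) and -1.86 ± 0.29 (SE, adjusted p = 0.000466), and EGR4 by -1.03 ± 0.24 (SE, adjusted p = 0.00588). In contrast to EGR1, EGR3 also rose in R8, by 1.09.

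FOS, FOSB, FOSL1, JUN and JUNB, subunits of the transcription factor AP-1, all had a lower response in R8. FOS had normalized counts of 193, 196 and 204 in MB468 at 0 h, 669, 699.5 and 719 in MB468 at 2 h, 296, 301 and 269 in R8 at 0 h, and 232, 242 and 205 in R8 at 2 h. All MB468 libraries at 2 h exceeded all other FOS values, and R8 did not pass the test against 0 h (-0.34, adjusted p = 0.142), so that the line difference was -2.16 ± 0.17 (SE, adjusted p = 1.37e-09). JUNB was 1774, 1587 and 1712 in MB468 at 0 h, 3649, 3783 and 3766 in MB468 at 2 h, 2533, 2704 and 2848 in R8 at 0 h, and 1501, 1425 and 1573 in R8 at 2 h. It rose by 1.14 in MB468 and fell by 0.85 in R8, with a line difference of -1.99 ± 0.09 (SE, adjusted p = 3.88e-15). JUN (-1.10), FOSB (-1.02) and FOSL1 (-0.70) had differences in this direction too. FOSB was called in 8 of 12 and FOSL1 in 3 of 12 fits that left out 1 library. FOSL2 (-0.31) and JUND (-0.31) did not pass the test.

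NR4A orphan nuclear receptors, which are induced by cAMP and stress, varied more between replicates. NR4A2 was 188, 152 and 156 in MB468 at 0 h, 2266, 1539 and 2435 in MB468 at 2 h, 770.0, 737 and 438 in R8 at 0 h, and 1267, 1388 and 981 in R8 at 2 h. The lines did not overlap at 0 h, where R8 was higher, nor did MB468 at 0 h and at 2 h. NR4A2 rose in both lines, by 3.66 in MB468 and 0.89 in R8 (adjusted p = 0.0255), and differed by -2.77 ± 0.36 (SE, adjusted p = 7.25e-05). NR4A1 differed by -1.81 ± 0.30 (SE, adjusted p = 0.00101) and NR4A3 by -2.06 ± 0.48 (SE, adjusted p = 0.0157), the latter called in 10 of 12 fits that left out 1 library and not with spike-in scaling (adjusted p = 0.0946).

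Among the Krüppel-like factors, KLF10 was 1116, 1210.3 and 1342 in MB468 at 0 h, 3225, 3142 and 3312 in MB468 at 2 h, 1206, 1474 and 1445 in R8 at 0 h, and 1123, 1163 and 1185 in R8 at 2 h. KLF10, a TGF-β-inducible repressor, rose by 1.41 in MB468 and fell by 0.24 in R8 (adjusted p = 0.00894), with a difference of -1.65 ± 0.08 (SE, adjusted p = 4.46e-18). KLF4 and KLF6 differed by -1.39 ± 0.17 and -1.14 ± 0.07, and in both R8 already stood higher at 0 h: KLF6 averaged 3200.1 ± 64.4 (SD, n = 3) in MB468 and 7308 ± 357 in R8 at 0 h, and 6742 ± 147 and 6969 ± 60.7 at 2 h. The 2 h levels of KLF6 thus lay close to each other although the responses differed. The matricellular genes CYR61 and CTGF, targets of YAP and serum response factor, differed by -1.17 ± 0.08 and -1.10 ± 0.13, and MYC by -0.81 ± 0.07. MYC rose in both lines, by 1.13 in MB468 and 0.32 in R8, and its difference was not called with spike-in scaling (adjusted p = 0.0797). The 1 member with a higher response in R8 was MCL1, an anti-apoptotic BCL2 family member, at 0.23 ± 0.06 (SE, adjusted p = 0.0153), called in 9 of 12 fits that left out 1 library. IER3 was lower as well (-1.55), but it lies in the major histocompatibility region, where counting can be split over alternative sequences, and its levels were low.

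**Figure D2:**
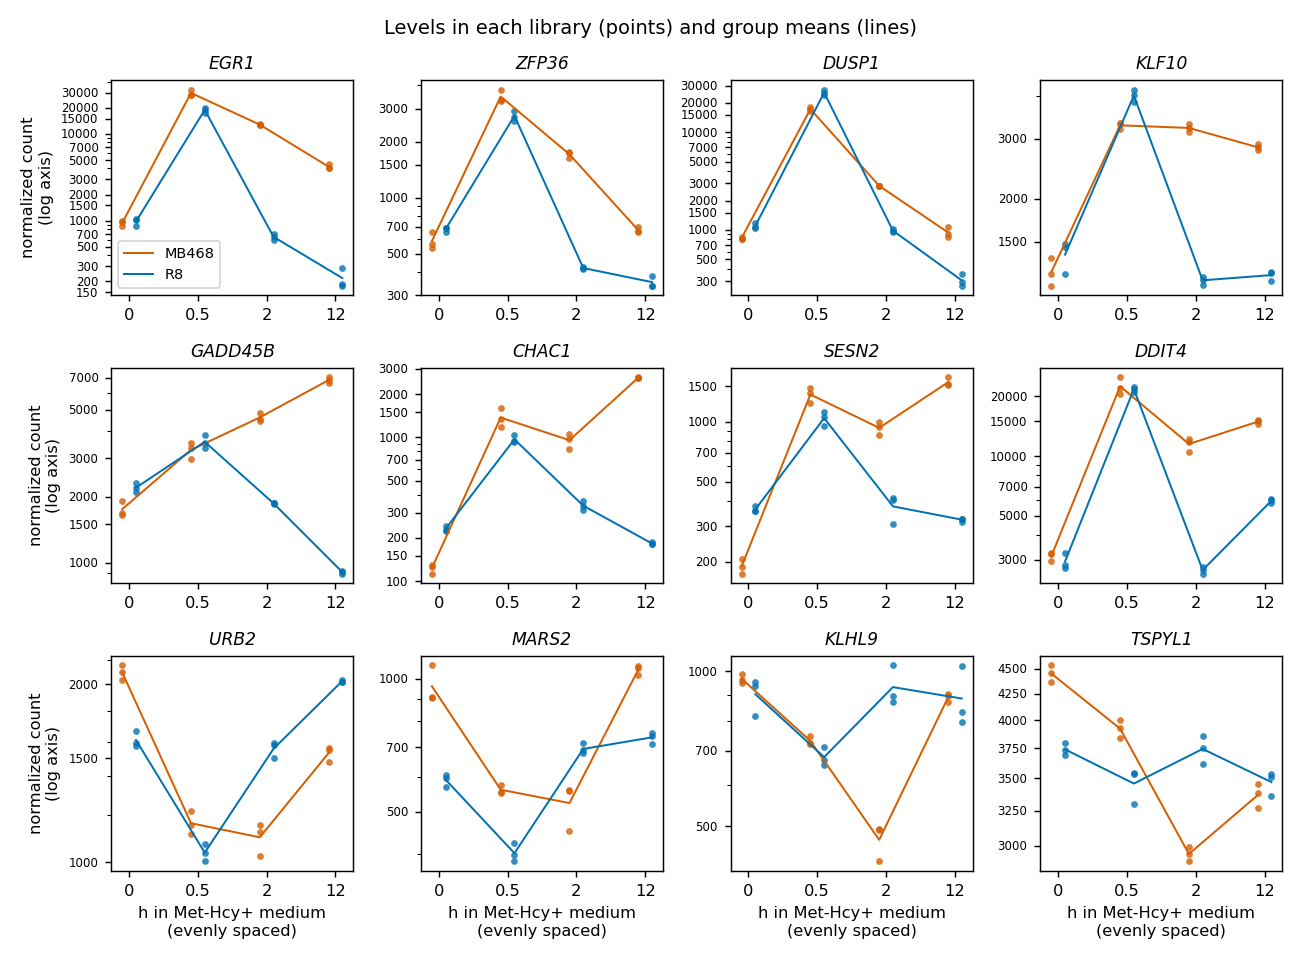
Normalized counts (log axis) of 12 genes in every library (points) with group means (lines), against h in Met-Hcy+ medium on an evenly spaced axis. At 0.5 h EGR1, ZFP36, DUSP1, KLF10, GADD45B, CHAC1, SESN2 and DDIT4 are raised in both lines and at 2 h the MB468 libraries remain above 0 h while the R8 libraries lie near or below it, except those of CHAC1 and some of SESN2. URB2, MARS2 and KLHL9 are lowered in both lines at 0.5 h and in MB468 at 2 h.

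GADD45B and TRIB1 were among the 4 genes of smallest p with a lower response in R8. GADD45B, a stress sensor upstream of p38 MAP kinase, was 1696, 1663 and 1919.6 in MB468 at 0 h, 4541, 4844 and 4469 in MB468 at 2 h, 2117, 2307 and 2191 in R8 at 0 h, and 1875, 1856 and 1881 in R8 at 2 h. It rose in MB468 and was below its 0 h level in R8, with a difference of -1.63 ± 0.08 (SE, adjusted p = 2.95e-18). TRIB1, a pseudokinase that directs C/EBPα to degradation, differed by -1.34 ± 0.07 (SE, adjusted p = 3.12e-17), with an MB468 mean of 2563 ± 54 (SD, n = 3) and an R8 mean of 1139 ± 16.7 at 2 h from 1090.3 ± 35.4 and 1229 ± 106 at 0 h.

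Of 26 tested feedback regulators and ligands of MAP kinase signaling, 13 had a lower response in R8 and none a higher one, with a median of -0.57 and 5 differences above 0. Without MB468 2 h replicate 2 11 were lower and none higher. With spike-in scaling 3 were lower and none higher, and 10 differences were above 0. In MB468 20 members rose and none fell at 2 h, and in R8 6 rose and 1 fell.

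Of the phosphatases, DUSP1, which inactivates p38, JNK and ERK, was 811, 809.6 and 856 in MB468 at 0 h, 2816, 2827 and 2832 in MB468 at 2 h, 1081, 1046 and 1178 in R8 at 0 h, and 949, 1030.2 and 969 in R8 at 2 h. In MB468 DUSP1 rose by 1.78, and in R8 it lay below its 0 h range without passing the test (-0.16, adjusted p = 0.362), which gave a difference of -1.94 ± 0.11 (SE, adjusted p = 7.31e-13). DUSP4 (-0.65) and DUSP5 (-0.84) rose in both lines and less in R8. DUSP2 (-0.87) was called in 5 of 12 fits that left out 1 library. The ERK-specific DUSP6, at -0.40, did not pass the test (adjusted p = 0.158).

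Of the receptor feedback proteins, ERRFI1, which inhibits EGFR, averaged 4027 ± 56 (SD, n = 3) in MB468 at 0 h and 8399.6 ± 464 at 2 h, and 3345 ± 13.9 and 3371 ± 68.7 in R8. It rose in MB468 only, as far as the test of each line goes, and the difference itself was -1.05 ± 0.07 (SE, adjusted p = 7.26e-14). SPRY2 rose by 0.52 in MB468 and fell by 0.32 in R8, with a difference of -0.84 ± 0.09 (SE, adjusted p = 2.46e-08). SPRY1 (-0.44) and SPRED2 (-0.33) were called too, in 7 of 12 and 8 of 12 fits that left out 1 library, and SPRY4 (-0.35) and SPRED1 (0.03) were not called. PHLDA1, which is induced by ERK, and EPHA2, a receptor tyrosine kinase, differed by -0.66 ± 0.06 and -0.56 ± 0.09.

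Among the ligands, the EGFR ligand HBEGF was 701, 633 and 617 in MB468 at 0 h, 1498, 1758 and 1669 in MB468 at 2 h, 953, 1021 and 969 in R8 at 0 h, and 995, 1055 and 959 in R8 at 2 h. HBEGF rose in MB468, with no overlap between 0 h and 2 h, and overlapped between times in R8, and the difference was -1.29 ± 0.11 (SE, adjusted p = 1.25e-10). Amphiregulin (AREG), another EGFR ligand, differed by -0.94 ± 0.21 (SE, adjusted p = 0.00391), and the cytokine LIF by -1.15 ± 0.20 (SE, adjusted p = 0.00169). LIF was lower in R8 at 0 h already, with 1677 ± 181 against 3954 ± 5.6 (SD, n = 3). TGFA (-0.11) and EREG (-0.90) did not pass the test.

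ZFP36 (tristetraprolin; chr19:39406847-39409407), the mRNA decay factor, had the smallest p of all tested genes. Its normalized counts were 657, 537 and 564 in MB468 at 0 h, 1755, 1731 and 1636 in MB468 at 2 h, 655, 690.2 and 692 in R8 at 0 h, and 414, 423 and 423 in R8 at 2 h. At 0 h the lines overlapped, and at 2 h MB468 was above and R8 below all 0 h libraries. ZFP36 rose by 1.54 in MB468 and fell by 0.69 in R8, with a difference of -2.23 ± 0.10 (SE, adjusted p = 4.47e-20). ZFP36L1 rose by 1.25 in MB468, from 4807 ± 167 to 11463 ± 381 (SD, n = 3), against 0.10 in R8 (adjusted p = 0.305), and differed by -1.16 ± 0.06 (SE, adjusted p = 3.12e-17). ZFP36L2 differed by -0.70 ± 0.07 (SE, adjusted p = 8.48e-10). Of the 11 tested genes of the ZFP36 and BTG list, 6 were lower and 1 higher in R8, also without MB468 2 h replicate 2, with a median of -0.60, and with spike-in scaling 3 were lower and 1 higher. The others that were lower were IRF2BP2 (-0.93 ± 0.05 SE, adjusted p = 1.8e-16) and IRF2BPL (-0.84), which are corepressors, and TOB1 (-0.60), an antiproliferative adaptor of the CCR4-NOT deadenylase that was called in 4 of 12 fits that left out 1 library. IRF2BP1 went the other way, at 0.45 ± 0.12 (SE, adjusted p = 0.0117). BTG1 (0.08) and BTG2 (-0.06) did not pass the test.

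Among 39 tested targets of ATF4 and CHOP, 11 had a lower response in R8 and none a higher one, and the median was -0.07, close to that of all genes. Without MB468 2 h replicate 2, 9 were lower. With spike-in scaling 6 were lower and 3 higher. The called members were ATF3, CHAC1, SESN2, DDIT4, DDIT3, PPP1R15A, FGF21, SLC38A2, CEBPG, JDP2 and PSPH, of which SLC38A2 is an amino acid transporter and PSPH a serine synthesis enzyme. In MB468 18 members rose and 1 fell at 2 h, and in R8 4 rose and 1 fell.

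CHAC1, which degrades glutathione, was 113, 131 and 126 in MB468 at 0 h, 824, 981 and 1062 in MB468 at 2 h, 228, 243 and 225 in R8 at 0 h, and 333, 359 and 314 in R8 at 2 h. R8 started higher, without overlap, and ended lower than MB468. CHAC1 rose in both lines, by 2.95 in MB468 and 0.54 in R8 (adjusted p = 0.00045), with a difference of -2.41 ± 0.15 (SE, adjusted p = 1.03e-14). SESN2 (chr1:28259518-28282491), a leucine sensor that inhibits mTORC1, was 205, 174 and 188 in MB468 at 0 h, 858, 993 and 939 in MB468 at 2 h, 358, 358 and 378 in R8 at 0 h, and 416, 408 and 308 in R8 at 2 h. As for CHAC1, R8 was the higher line at 0 h and the lower one at 2 h, and the difference was -2.22 ± 0.13 (SE, adjusted p = 4.45e-16). DDIT4 (REDD1), another inhibitor of mTORC1, was 3203, 2947 and 3242 in MB468 at 0 h, 10529, 12206 and 11788 in MB468 at 2 h, 2839, 2738 and 3264 in R8 at 0 h, and 2769.9, 2561 and 2669 in R8 at 2 h. Here the 0 h libraries overlapped between the lines, R8 at 2 h did not pass the test (-0.14, adjusted p = 0.365), and the difference was -2.02 ± 0.10 (SE, adjusted p = 3.95e-13).

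DDIT3 (CHOP) averaged 80.9 ± 10.7 (SD, n = 3) at 0 h and 268 ± 6.39 at 2 h in MB468, against 101 ± 10.1 and 103 ± 12.2 in R8, and differed by -1.68 ± 0.18 (SE, adjusted p = 8.35e-09). PPP1R15A (GADD34), which restores translation by dephosphorylating eIF2α, differed by -1.36 ± 0.08 (SE, adjusted p = 3.12e-17), and ATF3, a repressor induced by stress that is also an immediate early gene, by -1.46 ± 0.21 (SE, adjusted p = 0.000203). These regulators had MB468 changes between 1.26 and 2.10, and of them ATF3 rose in R8 (0.64, adjusted p = 0.0113). CEBPG, the C/EBP partner of ATF4 whose promoter is printed above, differed less, by -0.49 ± 0.06 (SE, adjusted p = 1.81e-07). With spike-in scaling the CEBPG difference was -0.12 and not called (adjusted p = 0.603). The hormone FGF21 (-0.90), the AP-1 repressor JDP2 (-0.41) and PSPH (-0.22) were called in 3 of 12, 5 of 12 and 6 of 12 fits that left out 1 library. Other members that act on amino acids did not pass the test, nor did the pseudokinase TRIB3. Asparagine synthetase ASNS was at 0.08 (adjusted p = 0.777), PHGDH at 0.11, PSAT1 at 0.07, MTHFD2 at -0.09, the cystine transporter SLC7A11 at 0.04 and TRIB3 at -0.09. Of 28 tested targets of ATF6 and XBP1, the other arms of the unfolded protein response, 1 was lower (HERPUD1, -0.40, called in 4 of 12 fits that left out 1 library) and none higher, and HSPA5, which encodes the chaperone BiP, was at 0.07 (adjusted p = 0.59).

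Of 21 tested targets of NF-kB, 7 were lower in R8 and none higher, with a median of -0.28. Without MB468 2 h replicate 2, 6 were lower, and with spike-in scaling 3 were lower and 1 higher, with a median of 0.08. The cytokine IL6 was 70.9, 60.6 and 40.8 in MB468 at 0 h, 314, 262 and 305 in MB468 at 2 h, 261, 210.3 and 201 in R8 at 0 h, and 261, 278 and 236 in R8 at 2 h. MB468 rose from a level below that of R8 to one that overlapped it, and the difference was -2.12 ± 0.23 (SE, adjusted p = 1.09e-07). TNFAIP3 (A20), a ubiquitin-editing enzyme that shuts NF-kB off, differed by -1.44 ± 0.20 (SE, adjusted p = 8.81e-05) and NFKBIA, the inhibitor IκBα, by -1.003 ± 0.08 (SE, adjusted p = 1.92e-12). NFKBIA rose by 0.65 in MB468 and fell by 0.35 in R8. The chemokine CCL20 differed by -0.88 ± 0.20 (SE, adjusted p = 0.00378). NFKBIZ, an atypical IκB protein, did not change in a way that passed the test in MB468 (-0.10) and fell by 0.91 in R8. BCL3 (-0.54) and ICAM1 (-0.28) were called in 5 of 12 and 4 of 12 fits that left out 1 library. The subunits NFKB1 (-0.01) and RELB (0.00) did not pass the test.

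Feedback genes of TGF-β and BMP signaling were lower in R8 in 3 of 16 cases and higher in none, with a median of -0.20, and with spike-in scaling 1 was lower and none higher. TGIF1, a homeodomain corepressor of SMAD proteins, was 2557, 2561 and 2534 in MB468 at 0 h, 4765, 5069.5 and 4744 in MB468 at 2 h, 1680.4, 1717 and 1697 in R8 at 0 h, and 1658, 1569.9 and 1628 in R8 at 2 h. MB468 was the higher line throughout and rose, R8 lay below its 0 h range without passing the test, and the difference was -0.999 ± 0.06 (SE, adjusted p = 7.38e-16). The inhibitory SMAD7 (-0.70 ± 0.15 SE, adjusted p = 0.00218) and the pseudoreceptor BAMBI (-0.66 ± 0.11 SE, adjusted p = 7.39e-05) were the other called members. ID1 was at -0.77 and did not pass the test (adjusted p = 0.124). In the MYC network, 3 of 13 genes were lower (MYC, ARRDC3 and MXD1) and 1 higher (MLXIP, 0.24, called in 3 of 12 fits that left out 1 library), with 1 higher and none lower under spike-in scaling. MXD1, a MAX partner that antagonizes MYC, rose in both lines and differed by -0.58 ± 0.13 (SE, adjusted p = 0.0035), and ARRDC3, an arrestin family member regulated by glucose sensors, differed by -0.62 ± 0.12 (SE, adjusted p = 0.000708).

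Of 10 tested targets of the aryl hydrocarbon receptor 1 was lower and 1 higher. CYP1A1, its best known target, was 3337, 3121 and 3384 in MB468 at 0 h, 1023, 1104 and 1038 in MB468 at 2 h, 5216, 4402 and 5216 in R8 at 0 h, and 2195, 2338 and 2284 in R8 at 2 h. CYP1A1 fell in both lines without overlap between times, by 1.64 in MB468 and 1.12 in R8, and the difference of 0.52 ± 0.09 (SE, adjusted p = 0.000196) was therefore a smaller fall. TIPARP, the ADP-ribosyltransferase that represses the receptor, rose by 0.76 in MB468 and fell by 0.47 in R8, with a difference of -1.23 ± 0.15 (SE, adjusted p = 3.2e-05).

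Genes with a higher response in R8 had smaller differences, and those named here fell in MB468. URB2 (chr1:229626247-229660200), a nucleolar protein needed for the large ribosomal subunit, was 2032, 2155 and 2104 in MB468 at 0 h, 1024, 1125 and 1154 in MB468 at 2 h, 1572, 1593 and 1666 in R8 at 0 h, and 1500.1, 1580.3 and 1588 in R8 at 2 h. MB468 dropped from above all R8 libraries to below all of them, R8 overlapped between 0 h and 2 h, and the difference was 0.88 ± 0.07 (SE, adjusted p = 1.65e-12). MARS2 (chr2:197705369-197708395), which charges mitochondrial tRNA with Met, was 903, 1071 and 908 in MB468 at 0 h, 452, 558 and 558 in MB468 at 2 h, 606, 569 and 596 in R8 at 0 h, and 689, 713 and 677 in R8 at 2 h. It fell by 0.89 in MB468, was at 0.23 in R8 (adjusted p = 0.0554) with no overlap between times, and differed by 1.12 ± 0.10 (SE, adjusted p = 1.12e-10). KLHL9, a substrate adaptor of the CUL3 ubiquitin ligase, was 949, 989 and 963 in MB468 at 0 h, 427, 494 and 491 in MB468 at 2 h, 937, 817 and 952 in R8 at 0 h, and 872, 896 and 1026 in R8 at 2 h. At 0 h the lines overlapped, at 2 h they did not, and the difference was 1.08 ± 0.11 (SE, adjusted p = 1.37e-09).

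KLHL25, another CUL3 adaptor, which targets ATP citrate lyase, moved in both lines. It was 439, 424 and 416 in MB468 at 0 h, 269.9, 282 and 225 in MB468 at 2 h, 428, 437 and 389.6 in R8 at 0 h, and 528, 621 and 531 in R8 at 2 h. KLHL25 fell by 0.73 in MB468 and rose by 0.43 in R8 (adjusted p = 0.000599), with a difference of 1.16 ± 0.13 (SE, adjusted p = 6.94e-09). RRS1, a ribosome biogenesis factor, followed this pattern at -0.50 and 0.28, with a difference of 0.78 ± 0.09 (SE, adjusted p = 2.38e-08), and so did TNKS1BP1, a tankyrase-binding protein, at -0.51 and 0.21, with 0.72 ± 0.07 (SE, adjusted p = 2.63e-09). TSPYL1, ATXN7L3B and RBM12B fell in MB468 by 0.60, 0.76 and 0.81 and did not pass the test in R8, and their differences were 0.60 ± 0.06, 0.68 ± 0.07 and 0.83 ± 0.10. ATXN7L3B competes for a cofactor of histone deubiquitinases, and RBM12B is an RNA-binding protein.

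The differences of largest size among genes with a higher response in R8 included that of SNORA33, which had low counts. SNORA33, a small nucleolar RNA within the RPS12 gene, averaged 39.7 ± 2.9 (SD, n = 3) and 9 ± 3.09 in MB468 at 0 h and 2 h and 26.9 ± 7.24 and 18.8 ± 2.33 in R8. Its difference of 1.59 ± 0.47 (SE, adjusted p = 0.037) was not called without MB468 2 h replicate 2 (adjusted p = 0.0928) or in 7 further fits that left out 1 other library. METTL12, a mitochondrial methyltransferase gene that holds a small nucleolar RNA, differed by 1.43 ± 0.33 (SE, adjusted p = 0.00382), and BBS12, a chaperonin-like protein of the cilium, by 1.35 ± 0.24 (SE, adjusted p = 0.000176). C2orf44 differed by 1.32 ± 0.15 (SE, adjusted p = 2.57e-08). ZNF469 differed by 1.22 ± 0.18 (SE, adjusted p = 0.000244), on R8 levels of 371 ± 57.8 at 0 h and 535 ± 68.7 at 2 h against 2191 ± 157 and 1389 ± 171 in MB468. On the opposite side, PKP1, a desmosomal plaque protein of squamous epithelia, also had low counts, with 43.1, 33.5 and 39.3 in MB468 at 0 h, 314, 330.3 and 341 in MB468 at 2 h, 62.6, 76.1 and 48.4 in R8 at 0 h, and 97, 113 and 65.9 in R8 at 2 h. Its 2 h values in R8 overlapped those at 0 h while MB468 rose without overlap, and the difference was -2.50 ± 0.25 (SE, adjusted p = 7.88e-10).

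**Figure D3:**
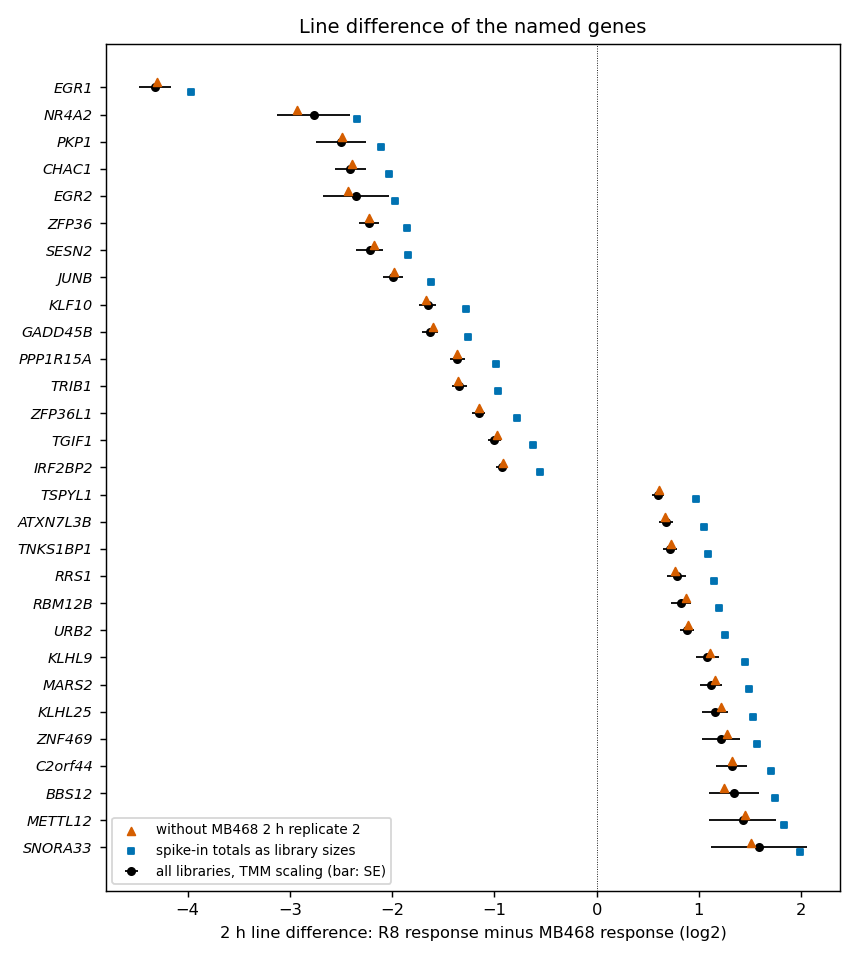
The 2 h line difference (log2) of the 29 genes named by size or by p, with all libraries and TMM scaling (circles, bars: SE), without MB468 2 h replicate 2 (triangles) and with spike-in totals as library sizes (squares). EGR1 is lowest at -4.32 and SNORA33 highest at 1.59. Squares lie to the right of circles for every gene, and no gene changes sign.

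Exon number, which the choice of genes did not use and which was looked at after values were seen, is given for the called genes as a description, with no test. Exons were counted in the canonical GENCODE v44 transcript, matched by symbol for 14022 of the 14741 tested genes. Of genes with a higher response in R8, 52 of 308 (16.9%) had a single exon, against 15 genes (3.61%) of those with a lower response and 564 (4.02%) of all. The median was 4 exons in the higher group, 7 in the lower group and 8 in all. Without MB468 2 h replicate 2, single-exon genes were 16.2% and 4.14%. By class, the share called with a higher response fell from 10.8% of 454 single-exon genes (small RNAs left out) and 7.09% of 762 genes with 2 exons to 2.67% of 3143 with 3 to 5, 1.74% of 3961 with 6 to 10 and 0.876% of 5592 with more. With TMM scaling the share called with a lower response had no such order, at 3.30%, 4.72%, 3.95%, 2.37% and 2.61%. With spike-in scaling the contrast between higher and lower calls turned round. Single-exon genes were then 12.0% of the genes called higher, with a median of 5 exons, and 17.5% of the 63 called lower with a known exon number, with a median of 4. By class, and in the same order, 90, 125, 244, 184 and 172 genes were called higher and 11, 12, 22, 13 and 5 lower, so both shares fell with exon number under that scaling. Single-exon genes with a higher response included RRS1, and those with a lower response JUNB (-1.99) and JUN (-1.10). Genes are not independent replicates, so these shares are a description.

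**Figure D4:**
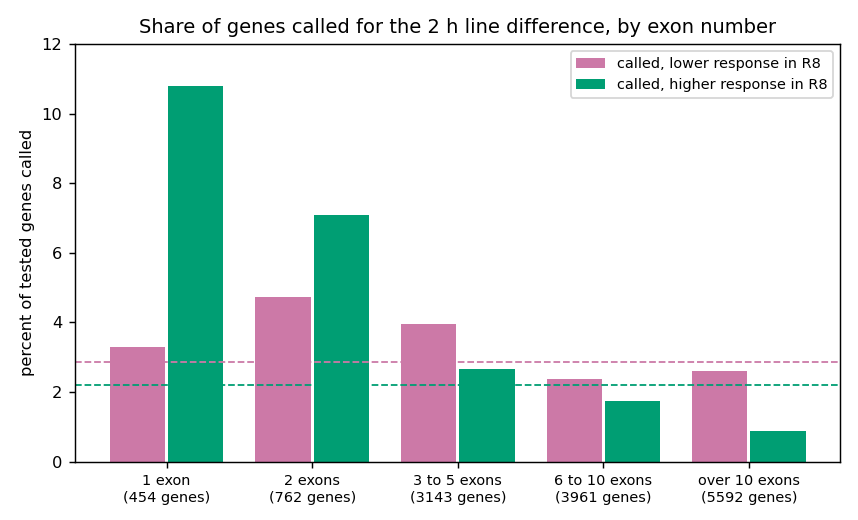
Percent of tested genes called for the 2 h line difference with TMM scaling, by exon number of the canonical transcript, with separate bars for a higher and a lower response in R8 (y axis from 0). The share with a higher response falls from 10.8% for 1 exon to 0.876% for more than 10, and that with a lower response runs between 2.37% and 4.72%.

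Zinc finger genes named ZNF, ZBTB, ZSCAN or ZKSCAN, also looked at after values were seen, were 3.72% of all tested genes (548). They were 11.6% of those with a lower response in R8 and 6.19% of those with a higher one, both above the share of all genes. Of the 548, 49 were lower and 20 higher. These were 40 and 16 without MB468 2 h replicate 2, and 2 and 51 with spike-in scaling, so the direction of this family rested on the scaling. ZNF217, a corepressor component, rose by 1.04 in MB468 against -0.03 in R8 (adjusted p = 0.916) and differed by -1.07 ± 0.07 (SE, adjusted p = 1.03e-14). ZNF567 differed by -0.92 ± 0.12 (SE, adjusted p = 6.96e-07), and in the other direction ZBTB26 by 1.21 ± 0.27 (SE, adjusted p = 0.00299) and ZNF488 by 0.92 ± 0.12 (SE, adjusted p = 6.63e-07). Many of these genes share near-identical exons, so counts can be split between family members and single values are uncertain.

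The list of methionine cycle and S-adenosylmethionine genes covers the pathway whose substrate was exchanged. Of 23 tested members 1 was higher in R8 and none lower, also without MB468 2 h replicate 2, with a median of 0.06. Of all 14741 tested genes 747 were called (5.07%), so this count is near the share of all genes. By edgeR's quasi-likelihood test 6 of the 23 had an unadjusted p under 0.05, as had 2338 of the 14741. AMD1, which decarboxylates S-adenosylmethionine for polyamine synthesis, was 7488, 7594 and 7961 in MB468 at 0 h, 6411, 6496 and 6578 in MB468 at 2 h, 6690.0, 6948 and 7259 in R8 at 0 h, and 7427, 7485 and 7519 in R8 at 2 h. It fell by 0.24 in MB468, was at 0.10 in R8 (adjusted p = 0.162), and differed by 0.34 ± 0.06 (SE, adjusted p = 3.13e-05). The S-adenosylmethionine synthetase MAT2A was at -0.17 ± 0.07 (adjusted p = 0.169), and methionine synthase MTR, which makes Met from Hcy, at 0.23 ± 0.08 (adjusted p = 0.106). None of 20 tested aminoacyl-tRNA synthetases was called by edgeR's quasi-likelihood test (1 at an unadjusted p under 0.05) or by DESeq2's Wald test. VARS lies in the major histocompatibility region and had low counts. With spike-in scaling 4 methionine cycle genes and 1 synthetase were higher in R8 and none lower.

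Few genes of lipid metabolism were called at 2 h, when 5.07% of all tested genes were called. No gene of 30 for FA synthesis was called by edgeR's quasi-likelihood test (2 at an unadjusted p under 0.05) or DESeq2's Wald test, and the median was 0.06. The same held for 33 genes of beta-oxidation (4 at an unadjusted p under 0.05), whose median was -0.00396. With spike-in scaling 1 gene of each list was higher. LPCAT1, which remodels phosphatidylcholine, was the 1 called gene of 27 for phospholipid and triglyceride synthesis, at -0.87 ± 0.19 (SE, adjusted p = 0.0021). It fell by 0.70 in R8 and was at 0.17 in MB468 (adjusted p = 0.478). With spike-in scaling its difference was -0.49 and not called (adjusted p = 0.137).

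Few cell cycle genes were called, and of all tested genes 5.07% were called. These counts are therefore not read as a trait of cell cycle genes. None of 23 genes of G1/S and replication was called by edgeR's quasi-likelihood test, and DESeq2's Wald test called 1 higher. By the former test 6 had an unadjusted p under 0.05, as had 2338 of all 14741 tested genes. Of 24 genes of G2 and mitosis, the checkpoint kinase TTK (-0.34) was lower and MKI67 (0.23) higher, called in 9 of 12 and 5 of 12 fits that left out 1 library. By edgeR's quasi-likelihood test 7 of these 24 had an unadjusted p under 0.05. Of 40 ribosome biogenesis genes URB2 and RRS1 were higher and none lower. Of 20 targets of NRF2, the master regulator of antioxidant genes, SRXN1 (0.43 ± 0.08 SE, adjusted p = 0.000371) and OSGIN1 (0.49, called in 9 of 12 fits that left out 1 library) were higher. Of 16 heat shock genes, HSPA8 (0.49 ± 0.08 SE, adjusted p = 0.000145) and HSPA1A (0.84) were higher and the co-chaperone DNAJB1 (-0.31 ± 0.07 SE, adjusted p = 0.00148) lower, and the counts of HSPA1A are uncertain because of its near-identical copy HSPA1B.

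HSPA8, the constitutive cytosolic chaperone, was among the most abundant genes that differed, with 65456, 69546 and 65925 in MB468 at 0 h, 46120.0, 46558 and 41787 in MB468 at 2 h, 55881, 57619.9 and 59171 in R8 at 0 h, and 51542, 51815 and 58421 in R8 at 2 h. It fell by 0.58 in MB468, without overlap, and was at -0.09 in R8 (adjusted p = 0.505). Of 19 interferon-stimulated genes 1 was lower (IRF1, -0.49), and among chromatin methyl writers and their partners EZH2, the H3K27 methyltransferase, was lower at -0.22, called in 8 of 12 fits that left out 1 library. Among the cell type markers, 1 basal marker was lower (KRT6A) and 1 higher (FOXC1, 0.55), the luminal factor GATA3 was lower (-0.66), and none of 4 fibroblast or 4 blood and endothelial markers was called by edgeR's quasi-likelihood test (none at an unadjusted p under 0.05) or by DESeq2's Wald test. Over all lists, 89 different genes were called. Of these, 69 stayed called whichever of the 12 libraries was left out, 9 were not called without MB468 2 h replicate 2, and 47 were called with spike-in scaling. The 9 were PSPH, FGF21, HERPUD1, FOSL1, DUSP2, SPRY1, ICAM1, MLXIP and EZH2. With spike-in scaling 6 of the 89 had a difference of the opposite sign, none of them called. These were PSPH, SPRED2, ICAM1, TTK, DNAJB1 and EZH2. Others not called with spike-in scaling included CEBPG, EGR4, DUSP4, DUSP5, SPRY2, PHLDA1, EPHA2, AREG, LIF, SMAD7, BAMBI, MXD1 and ARRDC3.

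**Figure D5:**
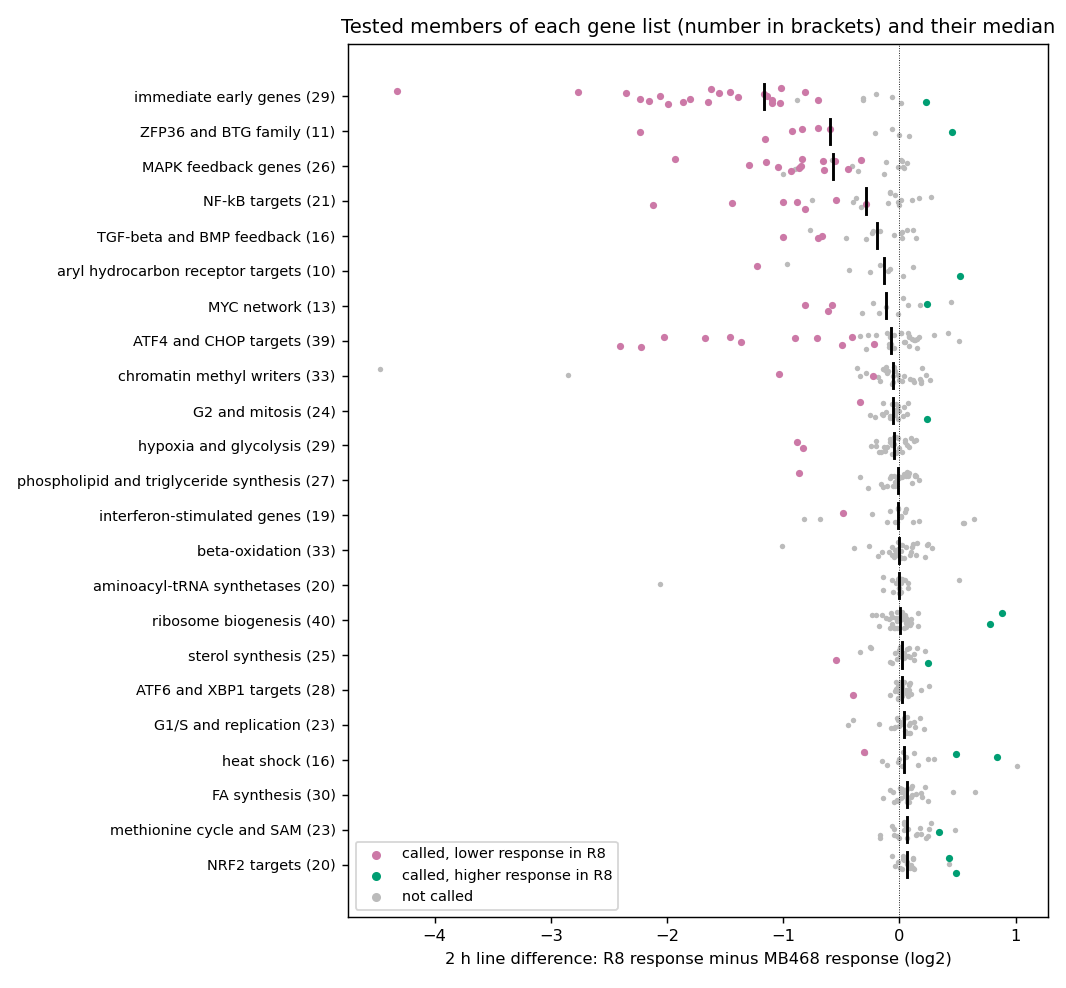
The 2 h line difference (log2) of every tested member of 23 gene lists, with the number tested in brackets. Coloured points are called genes, grey points are not called, and black bars are list medians. Immediate early genes lie farthest to the left with a median of -1.17. Next come the ZFP36 and BTG list at -0.60 and MAPK feedback genes at -0.57. The ZFP36 and BTG list also holds IRF2BP genes and TOB1, and BTG1 and BTG2 in it were not called. The metabolic lists have medians near 0.

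The same contrast was fitted at the other times of the series, sharing the 0 h libraries. At 0.5 h, 428 genes were called (2.90%), and at 12 h 8336 (56.5%). For the genes with a lower response in R8 at 2 h, the median log2 changes at 0.5, 2 and 12 h were 0.19, 0.45 and 0.41 in MB468 and 0.12, -0.04 and -0.14 in R8. For the genes with a higher response they were -0.20, -0.42 and 0.20 in MB468 and -0.11, 0.02 and 0.08 in R8. At 0.5 h EGR1 averaged 29696 ± 2418 (SD, n = 3) in MB468 and 18938 ± 1235 in R8, DUSP1 17238 ± 635 and 25420.3 ± 1697, and DDIT4 22449 ± 2216 and 21735 ± 668. All 3 lay above their 0 h levels in both lines at that time. Their 0.5 h line differences were -0.69 ± 0.14 (SE, adjusted p = 0.00979) for EGR1, 0.14 ± 0.10 (SE, adjusted p = 0.591) for DUSP1 and 0.04 ± 0.09 (SE, adjusted p = 0.912) for DDIT4.

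The change from 0.5 to 2 h, which does not use the 0 h libraries, differed between the lines for 1211 genes (8.22%). It was lower in R8, at -3.63 ± 0.14 for EGR1, -2.08 ± 0.09 for DUSP1, -2.06 ± 0.09 for DDIT4 and -1.77 ± 0.08 for KLF10 (log2). It shares the 2 h libraries with the main contrast. URB2 fell at 0.5 h in both lines, by 0.85 in MB468 and 0.63 in R8 (0.5 h line difference 0.22 ± 0.07 SE, adjusted p = 0.103), and at 2 h R8 overlapped its 0 h range while MB468 did not. KLHL9 fell by 0.41 and 0.41 at 0.5 h, and its change from 0.5 to 2 h differed by 1.08 ± 0.11 (SE, adjusted p = 2.42e-09). Other genes differed from the start: SESN2 at 0.5 h by -1.34 ± 0.13 (SE, adjusted p = 1.74e-09), and CHAC1 by -1.40 ± 0.14 (SE, adjusted p = 1.59e-08).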

How the data were processed

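Poly(A) RNA with ERCC spike-ins was sequenced from 24 libraries (8 groups of 3). The authors aligned single-end reads to GRCh38/hg38 joined with spike-in sequences and made per-gene counts, and per the submitters' processing notes the tools were HISAT2 2.1.0 and featureCounts of Subread 1.5.3. The deposited raw counts hold 26645 gene entries and 92 spike-ins. A deposited matrix of normalized values and a table of the authors' DESeq2 comparison (log2 fold change, standard error, statistic and p) were not used.

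All fits were made in R 4.3.3 (edgeR 4.0.16, limma 3.58.1, DESeq2 1.42.0). Low counts were removed by filterByExpr at a minimum count of 10 and a minimum total of 15, which left 14741 genes. After TMM scaling, edgeR's quasi-likelihood model with a mean per group was fitted to all 24 libraries (16 residual degrees of freedom before moderation). A normalized count is the count over the library's effective (TMM-scaled) size, times the mean of these sizes. The threshold for a call was 0.05 for p adjusted by Benjamini-Hochberg over all tested genes. Single values were compared with exact permutation tests.

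Named genes are the 10 of smallest p and the 5 of largest difference per direction among called genes with a mean of at least 1 CPM (29 in all), and members of 28 hand-written lists. The members and lists were chosen with earlier results of these data known. Symbols are as deposited, and coordinates are from RefSeq on GRCh38.p14. Groups come from the labels. Some genes that passed the test are not reported here. Alternatives were scaling by DESeq2 or by spike-in totals, a covariate from spike-ins, 2 other filters, DESeq2's Wald test, the 12 libraries alone, a replicate block, a threshold of 0.01, and each library left out. On simulated counts of 14434 genes with 200 changed ones, 74% of those changed by 0.5 and 96% of those changed by 1.0 (log2) were called for the line difference, and 5.03% of calls were unchanged genes. The changed genes were drawn only from those of higher counts, so recovery at low counts was not tested. The simulated spread followed expression level alone, and no outlying library was simulated.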

Additional observations from a re-analysis of the deposited data

Results flagged for a closer look

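The responses of the lines to the same switch of media differed by a test of the difference itself for 747 genes, 424 with a lower and 323 with a higher response in R8 (edgeR's quasi-likelihood test, adjusted p under 0.05). Of the genes with the smallest p, the differences (log2) were -2.23 for ZFP36, -1.63 for GADD45B, -1.65 for KLF10, -1.34 for TRIB1, -1.16 for ZFP36L1, -1.36 for PPP1R15A, -0.93 for IRF2BP2, -2.22 for SESN2, -0.999 for TGIF1 and -1.99 for JUNB among those lower in R8. Among those higher in R8 they were 0.88 for URB2, 1.12 for MARS2, 0.60 for TSPYL1, 1.08 for KLHL9, 0.68 for ATXN7L3B, 0.72 for TNKS1BP1, 1.16 for KLHL25, 0.78 for RRS1, 1.32 for C2orf44 and 0.83 for RBM12B. The remaining genes, chosen by size, had differences of -4.32 for EGR1, -2.77 for NR4A2, -2.50 for PKP1, -2.41 for CHAC1 and -2.36 for EGR2, and of 1.59 for SNORA33, 1.43 for METTL12, 1.35 for BBS12 and 1.22 for ZNF469. Groups of 3 libraries were not searched gene by gene for single outlying values.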

How the results depend on the processing

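Spike-in totals as library sizes called 866 genes with a higher and 65 with a lower response in R8, 164 with at least a 2-fold difference, and 9511 and 180 genes at 2 h in MB468 and R8. Without a low-count filter 197 genes had a 2-fold difference. An adjusted p of 0.01 left 431 genes (187 higher, 244 lower), and 1580 and 392 at 2 h in MB468 and R8. DESeq2's size factors (751 genes), a spike-in covariate (811), a filter of 10 counts per library (785), the Wald test of DESeq2 (834) and the 12 libraries alone (640) stayed within 1.5 times of the 747. Leaving out 1 library gave 578 to 799 genes, 238 to 314 higher, 337 to 488 lower, 84 to 112 with 2-fold differences, 1856 to 2443 in MB468 and 348 to 667 in R8, where the count was 348 without R8 2 h replicate 2 and 410 without R8 0 h replicate 3. The replicate block called 719 genes (307 higher, 412 lower, 90 with 2-fold differences; 2345 in MB468, 615 in R8). Deviations from group means correlated at a mean of 0.0249 (from -0.243 to 0.467) over 18 pairs of the same number. Over 36 pairs of different numbers the mean was -0.0126 (from -0.472 to 0.452). The labels do not say whether libraries of the same number were handled together, and these correlations cannot decide it. The 29 named genes kept their direction in all 578 alternative values; the exception to their calls was SNORA33, not called in 9 of its alternatives. Of 560 list medians, 43 moved by more than their spread. What greater depth would add was not tested.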

Other observations

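ZNF750 and the keratin KRT6A, both picked after values were seen, had a lower response in R8. ZNF750, a transcription factor of epidermal differentiation, rose by 2.98 (log2) in MB468 and 1.33 in R8 and differed by -1.65 ± 0.29 (SE, adjusted p = 0.00193). KRT6A averaged 38.6 ± 19.4 (SD, n = 3) normalized counts at 0 h and 149.7 ± 17 at 2 h in MB468, and 162 ± 7.27 and 227 ± 21.2 in R8, with a difference of -1.39 ± 0.25 (SE, adjusted p = 0.000313). The other keratins of the marker list were not called for the line difference. KRT6B averaged 310 CPM at 0 h and 471 CPM at 2 h in MB468 and 76.6 and 123 CPM in R8, and KRT17 averaged 1614 and 2639 CPM in MB468 and 762 and 1167 CPM in R8. Both adjusted p values are from edgeR's quasi-likelihood test over all tested genes.

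Of 29 genes of hypoxia and glycolysis 2 were lower in R8, both secreted factors, and none was higher. VEGFA, the angiogenic growth factor, was 3587, 3545 and 3928 in MB468 at 0 h, 5536, 5635 and 5583 in MB468 at 2 h, 4119, 4636 and 4159 in R8 at 0 h, and 3703, 3586 and 3317 in R8 at 2 h. It rose by 0.60 in MB468 and fell by 0.28 in R8, without overlap between times in either line, and differed by -0.88 ± 0.07 (SE, adjusted p = 2.13e-13). The vasodilator peptide ADM fell by 0.60 in R8 and was at 0.22 in MB468 (adjusted p = 0.0504), with a difference of -0.83 ± 0.11 (SE, adjusted p = 3.59e-07). Neither was called with spike-in scaling (adjusted p = 0.0618 and 0.0921).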
